A study of Mus musculus with 4 samples.

Results

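The genes of the cleavage and polyadenylation machinery were examined in mTEChi, epithelial cells of the thymic medulla sorted for high MHC class II. The set was taken from a list of 33 named genes that encode the core complexes and their accessory factors, chosen by name and not by a measured value. They are represented by 52 RefSeq IDs in the count tables, out of 30794 IDs of 23003 genes. All 33 were counted in every library and all 33 passed the filter on low counts. PolyA-selected RNA was sequenced in 4 libraries, of which a first experiment gave a WT and an Aire-KO one, by their labels, and a replicate experiment gave the same. Each was made from the pooled thymi of 4 B6 mice, aged 4 weeks, that were wild-type or carried the Aire -/- genotype. Since the count of Aire itself was higher in the libraries labelled Aire-KO (below), every direction given here rests on the labels.

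Pre-mRNA 3’ ends are made by cleavage at a polyA site (pA) and addition of a poly(A) tail. CPSF binds the AAUAAA signal and carries the endonuclease, CstF binds the GU-rich element downstream of the cut, CFIm binds UGUA elements upstream of it, and CFIIm, made of Clp1 and Pcf11, joins for cleavage. Many genes have several pAs, and the use of the proximal one leaves a short 3’UTR that lacks the distal sequence and its binding sites.

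Several of these genes contain alternative pAs themselves, and the windows below show the sequence at the ends to which their reads are assigned. Each gives the 30 bases that end at the annotated boundary on mm9, 5’ to 3’ on the transcript strand, with an AATAAA or ATTAAA hexamer, the DNA form of the signal read by CPSF, in capitals where there is one. Pcf11 and Elavl1 are shown as members with a hexamer at both pAs, and Cstf2t and Ddx17 as members with one at the distal pA only. Clp1 is shown as one of the members whose RefSeq entry has a single annotated end. The span of the Clp1 gene given below extends past that end.
Clp1, 3’ end, chr2:84563279-84563308, minus strand: attattttAATAAAtatgattgtgatagaa
Pcf11, proximal pA, chr7:99792764-99792793, minus strand: aattataAATAAAaaatatttttgctatcc
Pcf11, distal end, chr7:99792222-99792251, minus strand: catacatgtAATAAActgaatgatgaacaa
Elavl1, proximal pA, chr8:4289306-4289335, minus strand: aaagtatatATTAAAgtgaaaccgaagtag
Elavl1, distal end, chr8:4284782-4284811, minus strand: attttggtAATAAAtgaagtgggatcattg
Cstf2t, proximal pA, chr19:31159876-31159905, plus strand: ttaactgaatgtcagcatcttaagatacac
Cstf2t, distal end, chr19:31161053-31161082, plus strand: gaaaattaAATAAAaaggttgtataattaa
Ddx17, proximal pA, chr15:79360328-79360357, minus strand: tattttttcttttctcaaccattacggttt
Ddx17, distal end, chr15:79358126-79358155, minus strand: ttttattacATTAAAacttaaaaagagttt

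On the mean of the 4 libraries, all 33 genes were expressed above the median of all genes. Levels were compared per length as RPKM (reads per kb of transcript, scaled to the total count of the library). The mean of the 4 libraries ranged from 5.56 RPKM for Papolg to 381 RPKM for Ddx5, and 16 of the 33 were in the top 25% of all genes. The median of the members was 24.0 and 16.3 RPKM in the WT-labelled libraries of the first and the replicate experiment, against 4.59 and 3.99 RPKM over all 23003 genes. In the Aire-KO-labelled libraries it was 23.2 and 20.0 RPKM, against 3.31 and 2.96 RPKM.

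**Figure D1:**
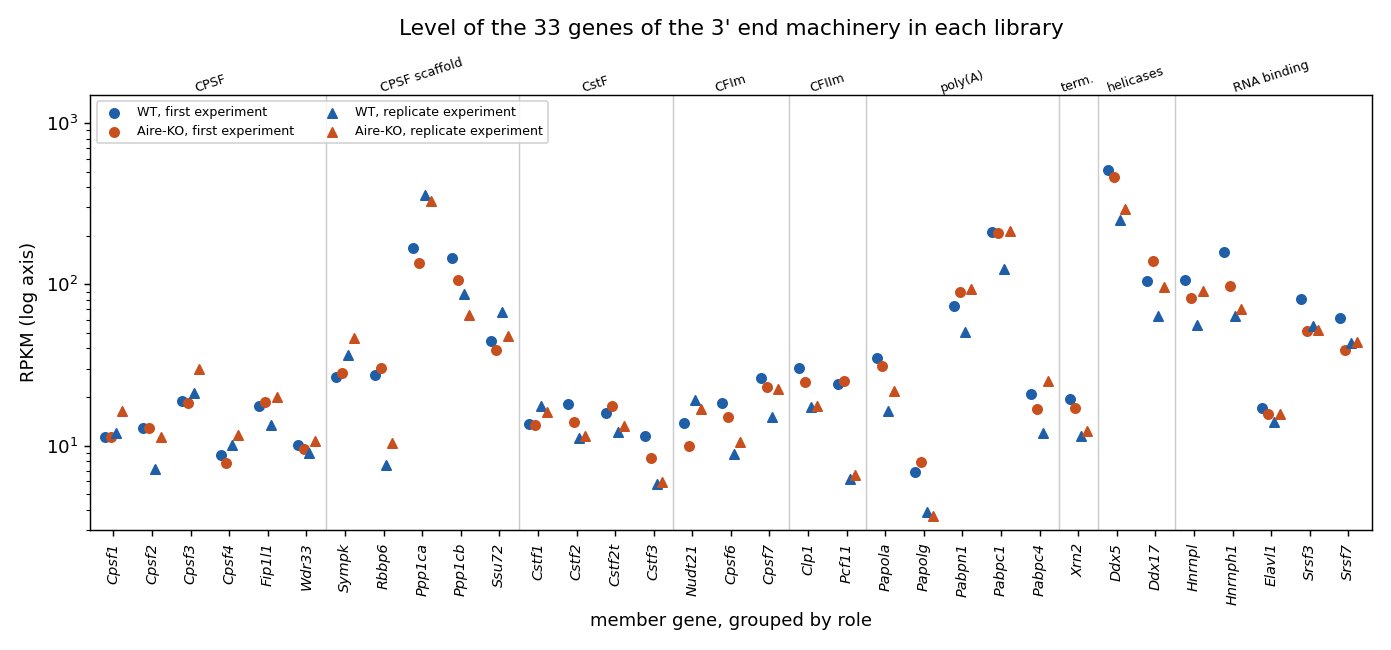
RPKM (log axis) of the 33 member genes, grouped by role, with 1 point per library (blue, WT; orange, Aire-KO; circles, first experiment; triangles, replicate experiment). Core subunits of CPSF, CstF, CFIm and CFIIm lie between 7.91 and 22.4 RPKM on average, whereas Ddx5, Ppp1ca and Pabpc1 have means of 381, 248 and 190 RPKM.

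The 6 CPSF subunits were expressed within a narrow range, from 9.56 RPKM (Cpsf4, a zinc finger subunit that contacts RNA) to 22.0 RPKM (Cpsf3, the endonuclease). Cpsf3 was at 18.9 and 18.3 RPKM (WT, then Aire-KO) in the first experiment, and then at 21.2 and 29.7 RPKM in the replicate experiment. For Cpsf4, the values were 8.68 and 7.85 RPKM in the first experiment, and then 10.1 and 11.6 RPKM in the replicate experiment. Neither gene separated the genotypes in both experiments on this scale. The other 4 were Cpsf1, the largest subunit, Cpsf2, the inactive relative of the nuclease, Wdr33, which reads the AAUAAA signal, and Fip1l1, which recruits the poly(A) polymerase. They had means from 9.85 to 17.4 RPKM.

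The scaffold and accessory factors of CPSF were more abundant and more variable. Ppp1ca, a catalytic subunit of protein phosphatase 1, was at 168 and 136 RPKM (WT, then Aire-KO) in the first experiment, and then at 360 and 329 RPKM in the replicate experiment. Rbbp6, a RING finger protein needed for cleavage, showed the opposite, with 27.2 and 30.1 RPKM in the first experiment, and then 7.55 and 10.4 RPKM in the replicate experiment. In both genes, the experiments differed more than the genotypes. Sympk, the scaffold protein symplekin, Ppp1cb, the other phosphatase subunit of the list, and Ssu72, a phosphatase of the polymerase CTD, had means of 34.4, 101 and 49.8 RPKM.

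The 4 CstF genes were close to each other, from 7.91 RPKM for Cstf3, the subunit that bridges the complex, to 15.2 RPKM for Cstf1, a WD-repeat subunit. Cstf1 was at 13.7 and 13.4 RPKM (WT, then Aire-KO) in the first experiment, and then at 17.6 and 16.1 RPKM in the replicate experiment. Values of Cstf3 were 11.5 and 8.38 RPKM, then 5.74 and 5.97 RPKM. Cstf2, the X-linked RNA-binding subunit, and Cstf2t, its paralog without introns on chromosome 19, were at 14.7 ± 4.92 and 14.0 ± 2.74 RPKM in WT (SD, n = 2). The difference between the paralogs was smaller than the spread of either.

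CFIm was represented by Nudt21, the subunit that binds UGUA, at 15.0 RPKM, and by its partners Cpsf6 and Cpsf7. Cpsf7 was at 26.1 and 23.2 RPKM (WT, then Aire-KO) in the first experiment, and then at 15.1 and 22.5 RPKM in the replicate experiment. Cpsf6 had 18.3 and 15.1 RPKM, then 8.86 and 10.5 RPKM. The ranges of both partners overlapped.

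Within CFIIm, Clp1, an RNA 5’-kinase of the complex, is found at chr2:84562261-84567507 (mm9, minus strand). It was at 30.1 and 24.7 RPKM (WT, then Aire-KO) in the first experiment, and then at 17.3 and 17.6 RPKM in the replicate experiment. Its mean of 22.4 RPKM exceeded that of 76.7% of all genes. Pcf11, its partner that contacts the polymerase CTD, is at chr7:99792222-99818443 (mm9, minus strand). Pcf11 had 24.0 and 25.0 RPKM in the first experiment, and then 6.21 and 6.53 RPKM in the replicate experiment. Clp1 and Pcf11 were closer in the first experiment than in the replicate one, where the level of Clp1 was above that of Pcf11 in both libraries.

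Among the poly(A) polymerases and poly(A) binding proteins, Pabpc1, the cytoplasmic poly(A) binding protein, was at 212 and 209 RPKM (WT, then Aire-KO) in the first experiment, and then at 125 and 214 RPKM in the replicate experiment. Papolg, the gamma poly(A) polymerase, was the lowest of all members on the mean of the 4 libraries, at 6.81 and 7.90 RPKM, then 3.90 and 3.64 RPKM. Papola, the main nuclear polymerase, Pabpn1, the nuclear poly(A) binding protein, and Pabpc4, another cytoplasmic one, had means of 26.1, 77.1 and 18.7 RPKM. Xrn2, the 5’ to 3’ exonuclease of transcription termination, was at 19.5 and 17.1 RPKM in the first experiment, and then at 11.4 and 12.4 RPKM in the replicate experiment.

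The helicases Ddx5 and Ddx17 were high, with Ddx5 at 514 and 465 RPKM (WT, then Aire-KO) in the first experiment, and then 251 and 294 RPKM in the replicate one. Ddx17 had 105 and 139 RPKM, then 63.6 and 96.3 RPKM. Of the RNA-binding regulators of site choice, Hnrnph1 was the highest on the mean of the 4 libraries, at 159 and 97.5 RPKM, then 63.2 and 70.6 RPKM. Elavl1 (HuR) was the lowest, at 17.1, 15.8, 14.0 and 15.8 RPKM in the same order. Hnrnpl and the SR proteins Srsf3 and Srsf7 had means of 83.9, 59.8 and 47.3 RPKM. For both SR genes, the RefSeq ID with most counts was a non-coding transcript that keeps extra sequence, so these values are not those of the coding transcript alone.

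Because only reads wholly inside an exon were counted, genes with many short exons lose more reads. Cpsf1, with 37 exons in the matched GENCODE transcript, went from 12.7 to 21.1 RPKM when the length was replaced by the number of positions at which a 50 bp read fits in an exon. Sympk, with 27 exons, moved from 34.4 to 50.7 RPKM, Xrn2, with 30 exons, from 15.1 to 25.8 RPKM, and Cstf2t, with 1 exon, from 14.7 to 14.9 RPKM. On that scale, Cpsf1 was above Cstf2t, the reverse of their order per length, and Clp1, with 3 exons, was at 23.2 RPKM.

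The genotypes were then compared to ask whether this machinery differed between mTEChi with and without Aire. None of the 33 genes passed an adjusted p of 0.05 in the edgeR quasi-likelihood test, where 5.84% of all RefSeq IDs passed, 5.58% with a higher and 0.258% with a lower value in WT. No member had an unadjusted p under 0.05 in that test, and the lowest adjusted p was 0.265, for Pabpn1. DESeq2 called 0 members as well, against 13.8% of all IDs (11.9% higher and 1.91% lower in WT), with 1 unadjusted p under 0.05. Log2 fold changes (WT over Aire-KO) ranged from -0.84 to 0.16, with 27 of 33 below 0 and a median of -0.35, against -0.03 over all IDs tested.

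The sign of these small differences depends on how the libraries are scaled. With TMM factors, 27 of 33 members were lower in WT in the first experiment, against 55.1% of all IDs, and then 30 of 33 in the replicate experiment, against 50.3%. With library sizes alone, 8 of 33 were lower in WT in the first experiment, against 28.5% of all IDs, and 23 of 33 in the replicate experiment, against 39.5%. On that scale, the median of all IDs moved by 0.29, the members' median became -0.03 against 0.26 over all IDs, and 9 members changed sign. Relative to the median of all IDs, the members' median was -0.32 with TMM and -0.29 with library sizes alone. Levels in all 4 libraries separated the genotypes, with WT lower, for 12 of 33 members with TMM, where 20.9% of all IDs did so, and for 2 of 33 with library sizes alone, against 9.73%. Members with WT higher in all libraries numbered 0 of 33 with TMM, against 28.4% of all IDs, and 2 of 33 with library sizes alone, against 36.9%.

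**Figure D2:**
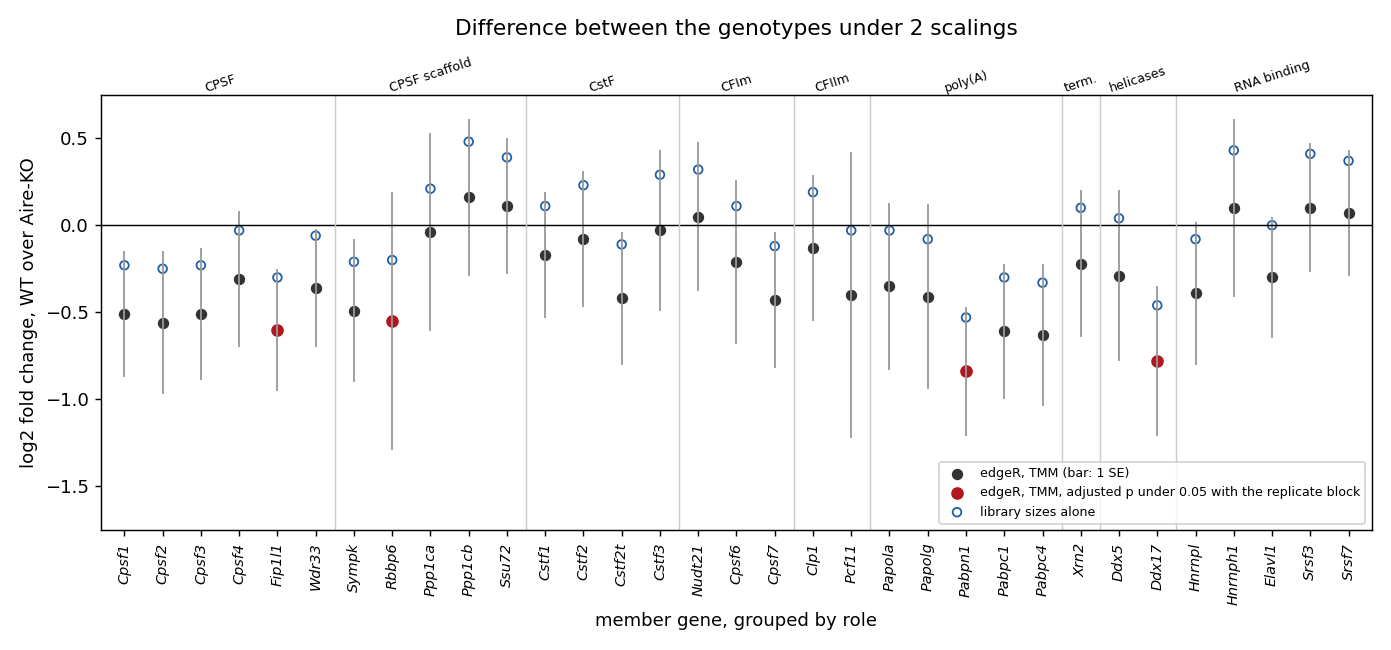
Log2 fold change of WT over Aire-KO for each member in the edgeR fit with TMM factors (filled points; bars, 1 SE) and with library sizes alone (open points), grouped by role. No member passes adjusted p 0.05 without the replicate block; with it, Pabpn1, Ddx17, Fip1l1 and Rbbp6 do (red). With library sizes alone 9 members change sign.

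Libraries are paired by experiment, and with the experiment as a block 4 members passed the threshold, all lower in WT, where 10.4% of all IDs were called lower and 16.5% higher. At an unadjusted p under 0.05 there were 11 members, all lower in WT, where 38.8% of all IDs passed, 16.6% with a lower and 22.2% with a higher value in WT. At the adjusted threshold, the share of members called lower was near that of all IDs. At the unadjusted one, the share of members lower in WT was larger than that of all IDs. The fit with the block used TMM factors only. These 4 are described in turn, with CPM, the count scaled to the library total and its TMM factor.

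Pabpn1, which coats the new tail in the nucleus and stimulates the polymerase, is at chr14:55511337-55517006 (mm9, plus strand). It had 81.4 and 130 CPM (WT, then Aire-KO) in the first experiment, and then 60.5 and 124 CPM in the replicate experiment. Both WT-labelled libraries lay below both Aire-KO-labelled ones, with a gap of 1.52-fold, and no other member had a gap over 1.5-fold, where 4.29% of all IDs did with WT lower and 19.7% with WT higher. The log2 fold change was -0.84 ± 0.37 (SE) with an adjusted p of 0.265, and -0.85 ± 0.20 with an adjusted p of 0.009 in edgeR with the block. With library sizes alone it was -0.53. Of the exonic bases of Pabpn1, 21.4% are shared with the annotated gene Gm20521, and the kit does not mark strand.

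Ddx17, an RNA helicase that acts with Ddx5, is at chr15:79358137-79377171 (mm9, minus strand). It had 309 and 535 CPM (WT, then Aire-KO) in the first experiment, and then 201 and 338 CPM in the replicate experiment. The genotypes did not overlap, although the WT-labelled library of the first experiment was near the Aire-KO-labelled one of the replicate experiment. The log2 fold change was -0.78 ± 0.43 (SE), adjusted p = 0.390, and -0.77 ± 0.21 with the block, adjusted p = 0.017 in edgeR. For Ddx17 it was -0.46 with library sizes alone.

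Fip1l1 is at chr5:74931474-74994815 (mm9, plus strand). It had 33.2 and 46.4 CPM (WT, then Aire-KO) in the first experiment, and then 27.5 and 45.3 CPM in the replicate experiment. The libraries of 1 genotype were close to each other and the genotypes did not overlap. In edgeR its log2 fold change was -0.60 ± 0.35 (SE), adjusted p = 0.420, and -0.60 ± 0.20 with the block, adjusted p = 0.046. Library sizes alone gave -0.30.

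Rbbp6 is at chr7:130109200-130146071 (mm9, plus strand). It had 104 and 151 CPM (WT, then Aire-KO) in the first experiment, and then 31.1 and 47.4 CPM in the replicate experiment, so the genotypes overlapped over both experiments and were apart within each. Its log2 fold change was -0.55 ± 0.74 (SE), adjusted p = 0.786, and with the block -0.57 ± 0.20, adjusted p = 0.048 in edgeR. Library sizes alone gave -0.20. Without the Aire-KO-labelled library of the first experiment its value was 0.51, in a fit that has no block.

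For Clp1, the levels were 34.0 and 36.4 CPM (WT, then Aire-KO) in the first experiment, and then 21.0 and 23.6 CPM in the replicate experiment. The log2 fold change was -0.13 ± 0.42 (SE) with an adjusted p of 0.924, and -0.14 ± 0.21 with an adjusted p of 0.667 with the block, both by edgeR. It was 0.19 with library sizes alone. The standard error allows a difference of either sign that is larger than the one measured.

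By role, the median log2 fold change was -0.61 for the poly(A) group, -0.54 for the helicases and -0.51 for CPSF, and between -0.26 and 0.07 for the others. All 6 CPSF genes had a log2 fold change below 0, from -0.60 to -0.31, and the 5 poly(A) genes ranged from -0.84 to -0.35. With TMM factors, the genotypes did not overlap for 5 of the 6 CPSF genes, where 20.9% of all IDs had WT lower in this way, and with library sizes alone for 1, Fip1l1, against 9.73%. With library sizes alone, the 6 CPSF and 5 poly(A) genes had values below 0 as well, with medians of -0.23 and -0.30. With TMM factors and the block, 1 gene of each group, Fip1l1 and Pabpn1, passed the threshold. The 4 CstF genes ranged from -0.42 to -0.03, the 3 CFIm genes from -0.43 to 0.05, and Hnrnph1, Srsf3 and Srsf7 were near 0, at 0.10, 0.10 and 0.07. None of these role groups was tested as a group.

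In many members, the experiments differed more than the genotypes. The mean difference between the experiments was larger than that between the genotypes for 21 of 33 members, with median sizes of 0.51 and 0.33 on the log2 scale. This comparison was not made over all IDs, so it is not shown to be particular to the members. The libraries of the experiments were apart by more than 1.5-fold for 6 of 33 members, where 14.6% of all IDs were. Pcf11 had 86.0 and 117 CPM (WT, then Aire-KO) in the first experiment, and then 23.9 and 27.9 CPM in the replicate experiment, a gap of 3.09-fold. Rbbp6, Papolg, Cstf3 and Hnrnph1 were also higher in the first experiment, with gaps of 2.19-, 1.57-, 1.54- and 1.51-fold. Ppp1ca was higher in the replicate experiment, at 326 and 330 CPM against 141 and 150 CPM, and 15.5% of its exonic bases are shared with Rad9. Depth, sorting and sequencing run cannot be told apart between the experiments.

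**Figure D3:**
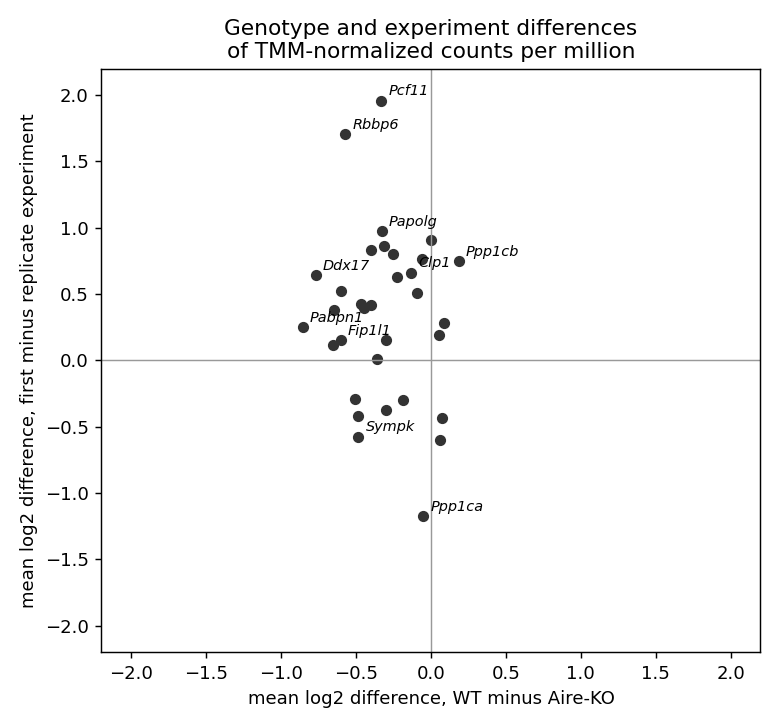
Each point is 1 of the 33 members, with the mean log2 difference of TMM-scaled CPM between the genotypes (x axis, WT minus Aire-KO) and between the experiments (y axis, first minus replicate) on axes of the same range. Points spread further along the y axis, with Pcf11 at 1.96, Rbbp6 at 1.71 and Ppp1ca at -1.17, whereas the x axis extends from -0.86 (Pabpn1) to 0.18 (Ppp1cb).

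Facts of the libraries that bear on these comparisons are few. Counts over 1 RefSeq ID per gene ranged from 79040239 to 169143187 per library. Aire, which should be disrupted in Aire-KO, had 398 and 307 CPM in the WT-labelled libraries and 1380 and 765 CPM in the Aire-KO-labelled ones. The counts per gene cannot show which exons those reads cover. Aire is known to raise the transcription of many genes in these cells, and 1495 IDs were called higher and 69 lower in the WT-labelled libraries. The 10 mTEChi markers, which include Aire itself (-1.61), were counted in every library. Their median log2 fold change was -0.44, with 7 below 0 and 3 above, Epcam (0.27), Krt5 (0.47) and Krt14 (0.18). edgeR called 0, DESeq2 called 1, Aire, and edgeR with the block called 4. These were lower in WT, as 1.91% of all IDs were in DESeq2 and 10.4% with the block. In edgeR without the block, 0.258% of all IDs were called lower and 5.58% higher in WT. Summed RPKM of the 7 fibroblast markers was 63.9 and 48.6 in WT and 136 and 113 in Aire-KO, with 3 of 7 called, all lower in WT. Pdgfra (-1.38) and Dcn (-1.65) were not called. Col1a1 (-0.13) and Pdgfrb (-0.07) were near 0 and had opposite signs in the experiments. Summed markers of thymocytes, of dendritic cells and macrophages, and of cTEC were higher in WT, but not every marker was. Log2 fold changes were below 0 for Cd4 (-0.59), Flt3 (-0.06), Ly75 (-0.84) and Prss16 (-0.11). The sum of the 10 thymocyte markers was 24.3 and 36.1 RPKM in WT and 13.5 and 18.7 RPKM in Aire-KO, with a median log2 fold change of 1.35 and 0 called. For the 8 markers of dendritic cells and macrophages, 1 of them without a length, it was 14.4 and 14.4 RPKM in WT and 6.58 and 4.80 RPKM in Aire-KO, with a median of 2.14 and 2 called. The 6 cTEC markers summed to 158 and 197 RPKM in WT and 89.2 and 151 RPKM in Aire-KO, with a median of 0.55 and 1 called, Enpep (2.69). B cell and endothelial markers had 0 called, and all 4 endothelial markers had a log2 fold change below 0. Pecam1 and Tek were lower in WT in both experiments. Kdr and Cdh5 were lower only through the Aire-KO-labelled library of the replicate experiment. Kdr had 0.786 and 0.131 CPM (WT, then Aire-KO) in the first experiment, and then 0.797 and 8.06 CPM. Cdh5 had 3.27 and 1.23 CPM, then 3.75 and 11.9 CPM. The part of these cells in the members' values was not tested. In bulk samples, fewer cells of a type and less RNA per cell cannot be told apart.

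The other genes of RNA 3’ end formation and RNA binding gave a like picture. Of 110 such genes tested in 7 lists, edgeR called 0, with 1 unadjusted p under 0.05, and DESeq2 called 0, with 3. Their median log2 fold change was -0.25 with TMM factors, with 89 of 110 below 0, against 13880 of all 26790 IDs. With library sizes alone it was 0.06, with 44 of 110 below 0, against 8499 of all 26790 IDs. The median of all IDs moved as well, from -0.03 to 0.26. The sign of the lists' median thus turned with the scaling, but it stayed below that of all IDs. With the block 10 of 110 genes were called, 3 higher and 7 lower in WT. Of all IDs 26.9% were called with the block, 16.5% higher and 10.4% lower, so these lists were called less often. The smallest p of each list belonged to Ints7 of Integrator (-0.56), Scaf8, a CTD-binding termination factor (-0.71), Pabpc1l (2.83), Pan2, a deadenylase subunit (-0.74), Srsf4 (-0.40), the neuronal Elavl4 (1.73) and Parp1 (-0.37). With the block, Scaf8, Pan2, Cnot2, Cnot4, Ints6, Cpeb1 and Cpeb4 were called lower in WT and Tob1, Elavl2 and Cpeb2 higher. Adjusted p with the block was 0.018 for Scaf8, 0.017 for Pan2 and 0.046 for Elavl2. Elavl2, the neuronal relative of Elavl1, had 1.79 and 0.901 CPM (WT, then Aire-KO) in the first experiment, and then 1.52 and 0.148 CPM in the replicate experiment, far below Elavl1 at 56.0 to 76.9 CPM.

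The use of alternative pAs in the members' own transcripts was measured by the d3’UTR ratio, the reads per bp downstream of the proximal pA over those per bp upstream of it in the last coding exon. A ratio near 0 means that few transcripts extend past the proximal pA. Of the 33 members, 22 have both parts annotated. The 11 others, Clp1, Cpsf1, Cpsf3, Cpsf4, Sympk, Ppp1ca, Cstf1, Nudt21, Papolg, Pabpc4 and Hnrnpl, have no d3’UTR and hence no ratio. The members' median ratio was 0.354 and 0.344 (WT, then Aire-KO) in the first experiment, and then 0.319 and 0.243 in the replicate experiment. The medians of 8177 RefSeq IDs with at least 10 upstream reads in every library were 0.438, 0.415, 0.358 and 0.342 in the same order.

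Mean ratios of single members ran from 0.00505 for Ssu72 to 2.01 for Pabpn1. Ppp1cb had ratios of 0.0281 and 0.0268 (WT, then Aire-KO) in the first experiment, and then 0.0214 and 0.0151 in the replicate experiment, with 19104 to 58505 upstream reads. The exact binomial 95% interval, which covers counting error only, was 0.0263 to 0.0301 in the first of these. Ssu72 was at 0.00479 and 0.00628, then 0 and 0.00913, from 3, 3, 0 and 8 reads in a d3’UTR of 90 bp. The count of 0 allows a ratio of up to 0.00610 at the upper end of its interval. Cpsf7 was at 0.0344, 0.0301, 0 and 0.0413 in the same order, with an interval of 0 to 0.0232 for the library without a read. In Ppp1cb, Ssu72 and Cpsf7, few reads lay past the proximal pA.

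At the other extreme, 5 members had a mean ratio above 1. Pabpn1 had 2.64 and 2.59 (WT, then Aire-KO) in the first experiment, and then 1.05 and 1.75 in the replicate experiment. Cstf2 was at 1.78 and 1.51, then 1.58 and 0.973, and Papola at 1.44 and 1.23, then 1.40 and 1.35. Pabpc1 had 1.34 and 1.24, then 1.16 and 0.754, with an upstream part of 65 bp in which a 50 bp read has few positions. The upstream parts of Papola and Pabpn1 are also short, at 117 and 121 bp. Fewer read positions upstream raise a ratio per bp, so the ratios of Pabpc1, Papola and Pabpn1 are too high. Cstf2t was at 1.41 and 0.970, then 0.871 and 1.0. Ddx17 came next, at 1.17 and 0.920, then 0.875 and 0.933. Without a correction for read positions, these 6 genes had ratios of 0.754 or more in every library. The place of Pabpc1, Papola and Pabpn1 in this group is therefore not secure, least of all for Pabpc1.

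The paralogs Cstf2 and Cstf2t both had ratios near or above 1, while Ddx5, at 0.342 and 0.312, then 0.289 and 0.226, was below its paralog Ddx17 in every library. Pcf11 had 0.399 and 0.357 (WT, then Aire-KO) in the first experiment, and then 0.233 and 0.150 in the replicate experiment. Elavl1, with a d3’UTR of 4524 bp, was at 0.343 and 0.331, then 0.302 and 0.260. For Cpsf6, the ratio was 0.364 and 0.311, then 0.259 and 0.100. Values of Pcf11 and Cpsf6 were lower in the replicate experiment in both genotypes.

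Fip1l1 (0.223, 0.201, 0.160 and 0.120 in the order WT and Aire-KO of the first, then of the replicate experiment) was also lower there. Hnrnph1 was at 0.271, 0.264, 0.335 and 0.0746 in that order, so its Aire-KO-labelled library of the replicate experiment stood apart from the other 3. Xrn2 (0.808, 0.710, 0.762 and 0.775) and Srsf3 (0.728, 0.679, 0.550 and 0.711) had high ratios in all libraries. Their upstream parts are 177 and 115 bp, and short upstream parts raise the ratio. Cpsf2 had 0.381, 0.453, 0.245 and 0.368, lower in WT in both experiments. Srsf7, counted over a non-coding RefSeq ID, was at 0.278, 0.274, 0.364 and 0.309, and its coding IDs gave 0.207, 0.245, 0.332 and 0.300. Wdr33 was at 0.131, 0.174, 0.158 and 0.111 in a short RefSeq ID and at 0.143, 0.136, 0.0733 and 0.0884 in the full-length one.

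**Figure D4:**
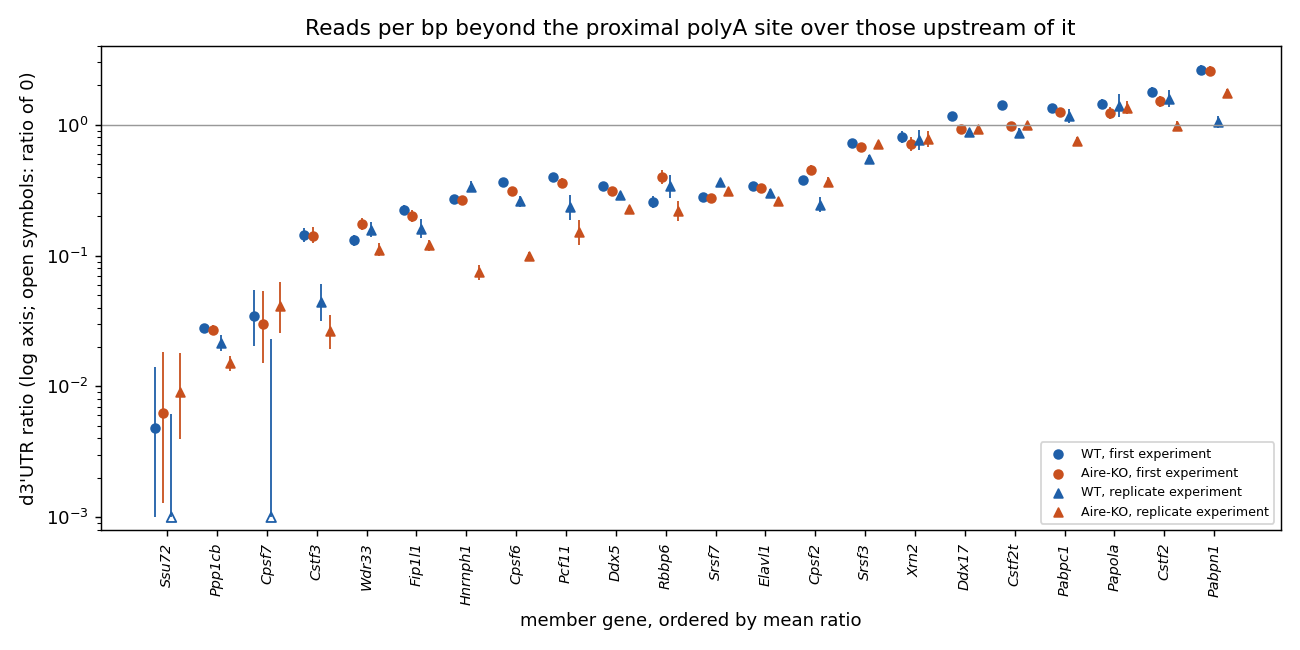
d3’UTR ratio (log axis) of the 22 members with both parts, ordered by their mean, with 1 point per library (blue, WT; orange, Aire-KO; circles, first experiment; triangles, replicate experiment) and the exact binomial 95% interval as a line. Open symbols mark a ratio of 0, drawn at the lower edge. The horizontal line marks a ratio of 1, above which the mean of Cstf2t, Pabpc1, Papola, Cstf2 and Pabpn1 lies. Short upstream parts raise the ratios of Pabpc1, Papola, Pabpn1 and Srsf3.

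No difference in d3’UTR usage between the genotypes was detected for any member. The edgeR test of region by genotype called 0 of 22, and 0 of all 8177 IDs (0.0%), with 132 of all IDs and 0 members at an unadjusted p under 0.05. With the block 0 of 22 were called (0.0% of all IDs) and 1 member, Cpsf6, had an unadjusted p under 0.05, with a log2 shift of 0.79 and an adjusted p of 0.898 by edgeR. DESeq2 called 0 of 22, against 0.159% of all IDs, with 0 members at an unadjusted p under 0.05. The median shift of the log2 ratio (WT over Aire-KO) was 0.14 over the members and 0.09 over all IDs. Ratios were higher in WT for 18 of 22 members in the first experiment, where 63.5% of all IDs were, and for 14 of 22 in the replicate experiment, against 48.9%. In both experiments this held for 12 of 22, against 34.8% of all IDs.

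The ratios of the genotypes did not overlap for Cstf2, Papola and Hnrnph1, with WT higher (19.8% of all IDs), and for Ssu72, with WT lower (6.95%). The shift was 0.47 ± 0.30 (SE) for Cstf2, 0.14 ± 0.21 for Papola, 1.08 ± 0.62 for Hnrnph1 and -1.66 ± 0.98 for Ssu72. All had an adjusted p of 1 in edgeR. An exact permutation test of 2 libraries against 2 cannot go below p = 0.33, so single values were not tested that way.

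Windows like those shown above were placed on mm9 for 11 of the 22 members in the RefSeq ID whose ratio is given. A hexamer AATAAA or ATTAAA was found in the 30 bases that end at the proximal pA, on the transcript strand, for Cpsf2, Rbbp6, Ssu72, Pcf11, Xrn2, Elavl1 and Srsf3, and for none of Cstf2t, Papola, Ddx5 and Ddx17. The mean ratios of the 7 members with a hexamer ran from 0.00505 to 0.764 and those of the 4 without from 0.292 to 1.35. The value of 1.35 is that of Papola, whose short upstream part of 117 bp raises it. For 2 more members a window was placed in another RefSeq ID. The full-length Wdr33 entry had no hexamer and a mean ratio of 0.110, below the range of those 4, and a coding Srsf7 entry had AATAAA and a mean ratio of 0.271. The short Wdr33 entries placed had AATAAA. Their d3’UTR of 47 bp cannot hold a 50 bp read, so their ratio carries no information. For the 11 members, medians in the WT-labelled libraries were 0.381 and 0.302 with and 1.29 and 0.873 without the hexamer, for the first and the replicate experiment. Over all 4549 proximal pAs placed in the same way, AATAAA was found at 37.2% and ATTAAA at 15.1%, with at least one of them at 51.0%. Of 4548 distal ends, 67.0% had one. Among the placed pAs with enough reads, the median WT ratio was 0.257 and 0.202 at 2164 pAs with and 0.681 and 0.598 at 2084 pAs without either hexamer. The grouping by hexamer was chosen after the ratios were seen, and a match of letters does not show that the signal is used.

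Some members also have short RefSeq entries that end at another exon. The short entry of Rbbp6 ends on chromosome 7 of mm9 in an exon from 130122090 to 130123697, of which 37 of 1608 bp are shared with the exons of its longer transcripts. Its upstream part of 443 bp had 15.5 and 10.5 RPKM (WT, then Aire-KO) in the first experiment, and then 5.91 and 4.68 RPKM in the replicate experiment. The last coding exon of the full-length entry had 39.7 and 35.6 RPKM, then 7.17 and 11.0 RPKM. In all 4 libraries, the short end had fewer reads per bp than the full-length one. The ratio given above for Rbbp6 (0.257, 0.400, 0.338 and 0.220) is that of the short entry.

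For Cstf3, the short entry with a d3’UTR of 1979 bp had 529, 377, 50 and 54 reads in that part, in the order WT and Aire-KO of the first, then of the replicate experiment. These gave ratios of 0.144, 0.142, 0.0439 and 0.0263, higher in the first experiment in both genotypes. The last exon of the full-length Cstf3 entry had 17.5, 10.1, 8.05 and 7.06 RPKM. For Ddx17, the entry with another last exon of 1356 bp had 23.8 and 56.2 RPKM there in the first experiment, and then 12.5 and 14.3 RPKM in the replicate experiment. The upstream part of the usual last exon had 122 and 177 RPKM, then 81.4 and 122 RPKM, so Ddx17 was lower in WT at both ends. Reads of unspliced RNA would also fall in such exons, and their part was not tested.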

How the data were processed

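RNA-seq was measured in 4 libraries of mTEChi. The authors joined and trimmed the reads to 50 bp, mapped them to mm9 with Bowtie 1.0.0 and counted with bedtools, and deposited raw counts per RefSeq ID and feature. Only reads wholly inside an exon were counted, and the kit is not stranded. Proximal pAs are those of PolyA_DB 2. A gene is represented by the RefSeq ID with most counts. RPKM used the counts of 1 ID per gene as the total. Genotypes were compared with edgeR 4.0.16 (TMM, filterByExpr, quasi-likelihood, Benjamini-Hochberg over 26790 IDs, threshold 0.05). DESeq2 1.42.0, the replicate block and other settings served as alternatives. The d3’UTR test was the interaction of region and genotype over 8177 IDs, with 10 upstream reads or more in each library. Libraries of the same number come from the same experiment by the study's account, so they are paired. Deviations from group means correlated at 0.70 over 19771 genes and at 0.86 over the members. Counts of replicates differed. The main fit has no block, so its p-values measure the spread between pools of mice together with the difference between the experiments. mm9 positions came from GENCODE vM1 transcripts with the same coding length as the RefSeq entry. Tests were tried on simulated data. Full values were given for Clp1, members past a threshold, the extremes of each role and gaps over 1.5-fold. For the other lists, the gene with the smallest p was named, and those called with the block were named after their values were seen. The members and lists were chosen with earlier results of these data known.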

Additional observations from a re-analysis of the deposited data

How the results depend on the processing

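Calls rest on 2 libraries per genotype, and reads that cross a junction are missing, so levels of genes with short exons are too low. Any reads that match related sequences equally well (Ppp1ca and Ppp1cb, Cstf2 and Cstf2t, pseudogenes of Pabpc1) were assigned by the authors' mapping. Their number was not measured.

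Among the members 0 were called under each alternative of normalization, test, filter, RefSeq ID and left-out library, except the replicate block, with 4. In the other lists, 0 genes became 10 with the block, and 0 to 2 without 1 library, with 1 without Aire-KO replicate 2 and 2 without Aire-KO replicate 1. Over all IDs, 1564 calls became 2525 with library sizes alone, 4093 with DESeq2, 7205 with the block, and 1590 to 3814 without 1 library. The members' median of -0.35 became -0.03 with library sizes alone and ranged from -0.64 (without WT replicate 1) to -0.20 (without WT replicate 2). The d3’UTR test called 0 members throughout, and 13 of all IDs with DESeq2, with 0 to 14 without 1 library (14 without Aire-KO replicate 1). The block changed no member call in that test. The median WT ratio of the members moved from 0.336 to 0.309 with lengths less 49 bp. Their median WT level moved from 20.2 to 14.3 RPKM with a total over all IDs and, in the 21 members placed on GENCODE exons, from 16.7 to 24.2 RPKM with read positions, an alternative added after seeing the data.

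With library sizes alone the sign changed for Ppp1ca (0.21), Cstf1 (0.11), Cstf2 (0.23), Cstf3 (0.29), Cpsf6 (0.11), Clp1 (0.19), Xrn2 (0.10), Ddx5 (0.04) and Elavl1 (0.00). Without 1 library in turn, values crossed 0 for Rbbp6 (-1.71 to 0.51), Pcf11 (-1.63 to 0.98), Ppp1ca (-0.79 to 0.63), Ppp1cb (-0.26 to 0.64), Ssu72 (-0.27 to 0.33), Cstf2 (-0.48 to 0.21), Cstf3 (-0.62 to 0.38), Nudt21 (-0.27 to 0.40), Cpsf6 (-0.82 to 0.21), Clp1 (-0.58 to 0.21), Papola (-1.0 to 0.09), Papolg (-0.91 to 0.34), Xrn2 (-0.66 to 0.10), Ddx5 (-0.89 to 0.16), Hnrnph1 (-0.70 to 0.61), Srsf3 (-0.22 to 0.32) and Srsf7 (-0.24 to 0.26). The fits without 1 library have no block, so in them the genotypes are not balanced over the experiments. Within the experiments, with TMM factors, Rbbp6 was at -0.54 in the first and -0.61 in the replicate one. Of the genes that crossed 0, Ssu72, Cstf3, Hnrnph1, Srsf3 and Srsf7 had opposite signs in the experiments. The others kept the same sign in both. The cause was not tested.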
